A study of Homo sapiens with 6 samples.

Results

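Enzymes of glycolysis, the pentose phosphate pathway and the tricarboxylic acid (TCA) cycle, with a pair of glucose transporters, were compared between lenalidomide-resistant and control MM.1S cells. The genes were chosen by name as textbook members of these pathways, without lactate genes, and 40 were listed. Of these, 39 were measured among the 12760 genes of the expression table: 18 for glycolysis with glucose uptake, 6 for the pentose phosphate pathway and 15 for the TCA cycle. PFKP, which encodes the platelet form of phosphofructokinase, was not analysed here.

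MM.1S is an established human line of multiple myeloma, the cancer of antibody-secreting plasma cells, and lenalidomide is an immunomodulatory drug used against it. LenR cells (3 libraries) were selected under lenalidomide from a starting dose of 10 nM, which was raised 10-fold each month for 3 months, while WT cells (3 libraries) were carried in the solvent DMSO alongside them. All 6 libraries share the cell line and the genotype label WT. Replicates are named biological in the labels. Nothing says that they came from separately raised resistant lines, or that drug was present at harvest, so p-values measure the spread between these samples.

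Glycolysis splits glucose into pyruvate: transporters bring glucose in, hexokinase traps it as glucose 6-phosphate, phosphofructokinase commits it to breakdown, and the lower steps yield ATP. The pentose phosphate pathway branches off at glucose 6-phosphate and supplies NADPH and ribose for nucleotides. The TCA cycle oxidises acetyl-CoA in mitochondria and delivers electrons to the respiratory chain, and myeloma cells, which secrete large amounts of protein, draw on all of these routes.

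The 6 libraries held 14500140 to 17387914 reads over the listed genes, and the 39 genes had 156 to 55436 reads each per library. Plasma cell markers were abundant: 10 of 12 were measured, with summed FPKM (fragments counted per gene, divided by gene length and library size) of 4050 to 4670 in WT and 4740 to 5690 in LenR. B cell, T and NK cell, stromal and erythroid lists reached at most 8.31 summed FPKM, and 0 of 7 myeloid markers were in the table. On the second principal component of all genes (26.8% of the variance; the first, 58.1%, separated the groups) WT replicate 3 and LenR replicate 2 stood together at -14.0 and -13.7, the other WT libraries and LenR replicate 1 lay between 2.62 and 6.62, and LenR replicate 3 lay at 12.7. WT replicates 1 and 2 were closer to each other than any other pair. A median chi-square over genes of 1.17 times that of counting noise separated them, against 3.89 for the next closest pair. They were kept as separate samples, and counts are given below with them averaged as well. In bulk RNA, fewer cells expressing a gene and less RNA per cell cannot be told apart.

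HK2, PFKM, PFKFB3 and ALDOC rose in LenR cells by 1.21-fold to 1.33-fold, and the glucose transporter SLC2A3 fell to 0.622 of its WT mean. No enzyme of the pentose phosphate pathway or the TCA cycle passed the test. In limma on log2(FPKM + 1), with Benjamini-Hochberg adjusted p below 0.05 as the threshold, 5 of 39 genes passed (12.8%), 4 higher and 1 lower, against 15.1% of the 11276 genes tested (8.57% higher, 6.57% lower), so the share called lay near that of all genes. SLC2A3 alone was called with WT replicates 1 and 2 averaged or with any of 3 libraries left out. All 5 were among the 18 genes of glycolysis and glucose uptake (27.8%). With 0 of 6 pentose phosphate genes and 0 of 15 TCA genes called by limma, the unadjusted p was under 0.05 for 0 and 2 of them (IDH3A and IDH3B), against 28.7% of all genes, and voom on the reads recovered from the table also called 0 in each. Whether the shares differ between pathways was not tested.

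**Figure D1:**
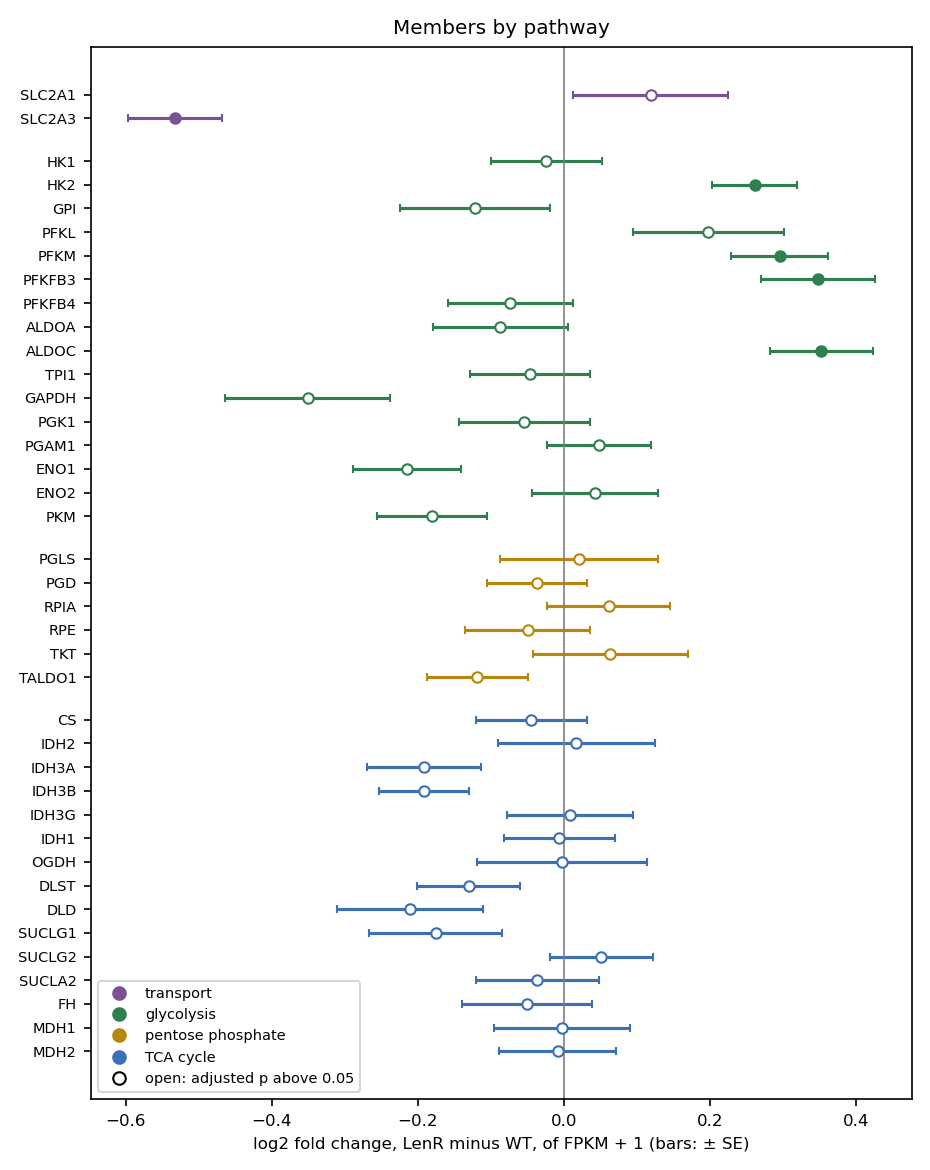
Log2 fold change of FPKM + 1 (x axis, LenR minus WT) for the 39 genes (y axis), ordered and coloured by pathway, with bars of ± 1 standard error. Filled points passed an adjusted p of 0.05: SLC2A3 at -0.53, and HK2, PFKM, PFKFB3 and ALDOC between 0.26 and 0.35, while all pentose phosphate and TCA points are open.

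The typical enzyme moved little. The median log2 fold change was -0.03 for glycolysis with uptake, -0.01 for the pentose phosphate pathway and -0.04 for the TCA cycle, beside -0.0023 over all genes tested. In absolute size the medians were 0.15, 0.06 and 0.04, beside 0.12 over all genes. Glycolysis held 8 genes above 0 and 10 below, the pentose phosphate pathway 3 and 3, and the TCA cycle 3 and 12. In 10 of the 39 genes the WT and LenR libraries did not overlap, against 34.5% of all genes tested, and 8 of the 10 were glycolytic.

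SLC2A3 encodes GLUT3, a high-affinity glucose transporter best known from neurons (ENSG00000059804; chr12:7919230-7936275, minus strand, GRCh38). Its WT libraries measured 4.44, 4.43 and 4.34 FPKM and its LenR libraries 2.72, 2.58 and 2.92. Every LenR library lay below every WT library, with 156 to 307 reads behind each value. The means were 4.40 ± 0.0531 and 2.74 ± 0.170 FPKM (SD, n = 3 each), and the log2 fold change was -0.53 (SE 0.0644, limma adjusted p = 0.00127). This call held in each of the 17 alternative settings in which the gene was tested. SLC2A1, which encodes the widespread transporter GLUT1, measured 12.7, 11.5 and 13.8 FPKM in WT and 14.8, 15.0 and 11.8 FPKM in LenR. Its groups overlapped, with a log2 fold change of 0.12 (95% interval -0.13 to 0.36).

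The hexokinases phosphorylate glucose on entry. HK2, the inducible form that binds mitochondria and is often high in tumours (ENSG00000159399; chr2:74833981-74893359, plus strand), stood at 13.7, 13.6 and 14.3 FPKM in WT and 16.9, 16.8 and 16.8 FPKM in LenR. The LenR libraries lay close together and above all WT libraries. The means were 13.9 ± 0.412 and 16.8 ± 0.103 FPKM (SD, n = 3 each), a log2 fold change of 0.26 (SE 0.0585, limma adjusted p = 0.0211). HK1, the housekeeping form, was at 7.12 ± 0.0316 and 7.01 ± 0.707 FPKM, with overlapping groups (log2 fold change -0.02). GPI, which turns glucose 6-phosphate into fructose 6-phosphate, measured 94.0 ± 9.08 and 86.4 ± 8.79 FPKM and overlapped.

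Phosphofructokinase carries out the committed step. PFKM, its muscle form (ENSG00000152556; chr12:48105139-48146404, plus strand), was at 52.2, 51.8 and 53.8 FPKM in WT and 65.6, 61.6 and 67.1 FPKM in LenR. All LenR libraries were above all WT libraries, with means of 52.6 ± 1.06 and 64.8 ± 2.86 FPKM (SD, n = 3 each) and a log2 fold change of 0.30 (SE 0.0669, limma adjusted p = 0.0223). PFKM shares up to 236 bases of exon with SENP1 on the other strand, and the strand setting of the counting is not given. SENP1 itself measured 8.90 ± 0.137 and 8.26 ± 0.613 FPKM, so it did not stand higher in LenR (log2 fold change -0.10, limma adjusted p = 0.40). PFKL, the liver form and the more abundant one, was at 160.0 ± 11.2 and 184.2 ± 20.2 FPKM with overlapping groups (log2 fold change 0.20, limma adjusted p = 0.257).

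The bifunctional PFKFB enzymes make and remove fructose 2,6-bisphosphate, the strongest activator of phosphofructokinase. PFKFB3, whose kinase activity far outweighs its phosphatase (ENSG00000170525; chr10:6144934-6254644, plus strand), measured 5.21, 4.61 and 4.97 FPKM in WT and 6.52, 7.14 and 6.01 FPKM in LenR. The lowest LenR library still exceeded the highest WT library. The means were 4.93 ± 0.302 and 6.56 ± 0.565 FPKM (SD, n = 3 each), a log2 fold change of 0.35 (SE 0.0782, limma adjusted p = 0.0217). PFKFB4, a sister enzyme, went from 4.62, 4.49 and 5.39 FPKM in WT to 4.72, 4.79 and 4.11 FPKM in LenR. Those ranges overlapped, with a log2 fold change of -0.07 (95% interval -0.27 to 0.13).

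Aldolase cleaves fructose 1,6-bisphosphate. ALDOC, the brain-type form (ENSG00000109107; chr17:28573115-28577264, minus strand), was at 18.5, 19.5 and 21.2 FPKM in WT and 26.0, 25.6 and 24.7 FPKM in LenR. The groups did not overlap, and the means of 19.7 ± 1.35 and 25.4 ± 0.632 FPKM (SD, n = 3 each) gave a log2 fold change of 0.35 (SE 0.0703, limma adjusted p = 0.0129). An antisense transcript shares up to 251 bases of its exons, and reads from it cannot be told apart without strand. ALDOA, the main aldolase, measured 309.5, 310.7 and 353.7 FPKM in WT and 317.6, 313.5 and 285.0 FPKM in LenR, with overlapping groups and a log2 fold change of -0.09.

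**Figure D2:**
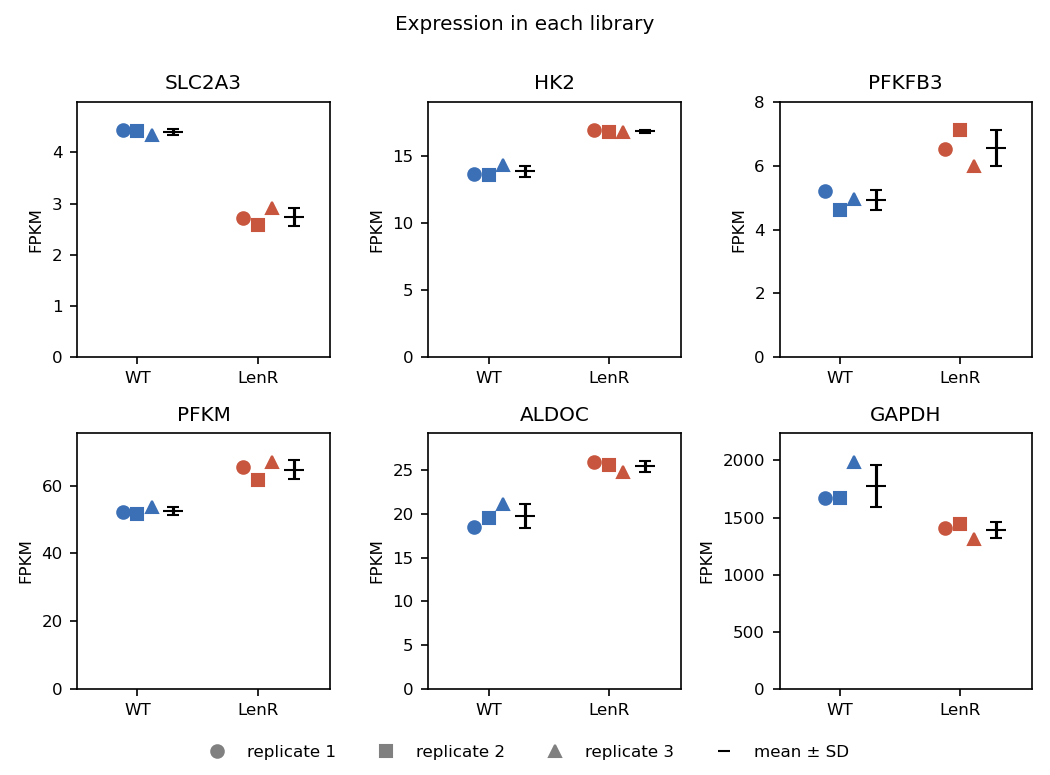
FPKM (y axis, from 0) in each WT and LenR library for the 5 genes past the threshold and GAPDH; marker shapes give the replicate and the black bars the mean ± SD of 3 libraries. In each of the 6 panels the LenR libraries lie wholly above or wholly below the WT libraries.

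The 4 rises held in fewer settings than the SLC2A3 call. When 1 of WT replicate 1, WT replicate 2 and LenR replicate 1 was left out, the limma adjusted p was 0.112, 0.111 and 0.0669 for HK2, 0.114, 0.114 and 0.0738 for PFKM, 0.0505, 0.0933 and 0.0769 for PFKFB3, and 0.075, 0.0644 and 0.0558 for ALDOC. PFKM also missed the threshold without LenR replicate 3 (0.0561), PFKFB3 without LenR replicate 2 (0.056) or without both libraries that stood apart (0.0646), and HK2 when every library was scaled to the same FPKM total (0.0519). With WT replicates 1 and 2 averaged, SLC2A3 was the only one of the 39 genes called.

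Promoter sequence was read for the genes above from RefSeq (GRCh38.p14), as windows of 250 bases before to 50 bases after each start site. They were searched for CACGTG, the E-box that MYC and related factors bind, which is its own reverse complement. The sites are shown because 3 of the 4 called genes with a window held one. Each is given 5′ to 3′ on the gene's strand with the E-box in capitals:

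HK2: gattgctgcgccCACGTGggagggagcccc

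HK2: ttccggcgagagCACGTGgagagaatcgtg

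PFKFB3: caccctcctcccCACGTGgaagggggctgg

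ALDOC: aagtgcccggCACGTGgtaaagggattg

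ALDOA: tggcagggaggcCACGTGatccgagtcccc

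GAPDH: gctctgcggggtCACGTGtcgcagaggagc

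The E-boxes of HK2 begin 194 and 149 bases upstream of a start site (chr2:74834964-74834993 and chr2:74835009-74835038, plus strand). That of PFKFB3 begins 108 bases upstream (chr10:6202812-6202841, plus strand) and that of ALDOC 240 bases upstream (chr17:28577118-28577145, minus strand). Among genes that were not called, ALDOA holds one 112 bases upstream (chr16:30064373-30064402, plus strand) and GAPDH one 81 bases upstream (chr12:6535171-6535200, plus strand). Each of these stretches lies inside the annotated span of its gene, downstream of the outermost annotated start. Which start site the cells use was not tested. No CACGTG was found in the windows of PFKM. Of the 39 genes, 37 had a window (not SLC2A3 or OGDH), and 5 of these 37 (13.5%) held the motif, against 12.7% of the 9459 table genes with a window. The motif occurred in 7.26% of all 35116 windows and in 8.77% of the 57 windows of these genes. Over the whole table it was present in 16.0% of the genes called higher in LenR, 12.1% of those called lower and 13.0% of those not called. The shorter motifs ACGTG and GCGTG were searched as well. They were in 35.1% and 56.8% of the 37 genes, against 32.6% and 58.5% of the 9459 table genes. Each match is a description of the letters only.

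The glycolytic steps after aldolase held the 3 most abundant transcripts of the set by FPKM (GAPDH, TPI1 and ENO1), and none of their enzymes passed the test. GAPDH, which oxidises glyceraldehyde 3-phosphate and ranked 8 among 12760 genes by mean FPKM (ENSG00000111640; chr12:6533927-6538374, plus strand), measured 1670.0, 1667 and 1989 FPKM in WT and 1409, 1446 and 1311 FPKM in LenR. All LenR libraries were below all WT libraries, and WT replicate 3 was far above the other WT libraries. The means were 1775 ± 185 and 1389 ± 69.3 FPKM (SD, n = 3 each), with a log2 fold change of -0.35 (SE 0.113, limma adjusted p = 0.080).

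ENO1, the main enolase, was at 360.5, 356.5 and 372.1 FPKM in WT and 313.4, 314.1 and 309.9 FPKM in LenR (log2 fold change -0.22, limma adjusted p = 0.097). PKM, the pyruvate kinase of the last step, was at 267.4, 265.7 and 286.3 FPKM in WT and 245.2, 239.1 and 237.8 FPKM in LenR (log2 fold change -0.18, limma adjusted p = 0.159). For both genes every LenR library lay below every WT library, and neither gene passed the threshold.

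Calls for these genes moved with the setting. With a term for the libraries that stood apart, limma adjusted p was 0.00303 for GAPDH, 0.00802 for ENO1 and 0.0251 for PKM. These libraries were picked from the same expression values, and with the term 28.1% of all genes were called, against 15.1% without it. Leaving out both of those libraries gave 0.012 for GAPDH and 0.0436 for ENO1 (6 of the 39 genes called, against 16.2% of all genes), and voom on recovered reads gave 0.030 for GAPDH. All 3 were also called after removal of a GC trend, an alternative added after the data were seen. The other enzymes after aldolase had overlapping groups: TPI1 (357.7 ± 5.19 and 346.8 ± 22.0 FPKM), PGK1 (315.3 ± 15.2 and 304.0 ± 22.6 FPKM), PGAM1 (137.9 ± 5.37 and 142.6 ± 3.61 FPKM) and ENO2 (130.0 ± 10.5 and 133.8 ± 7.08 FPKM). PGAM1 has a near-identical retrogene, PGAM4, so its reads may be split between them. The reads counted per library were 3489 to 4405 for PGAM1 and 45 to 67 for PGAM4.

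Summed over glycolysis and uptake, FPKM was 3914, 3900.2 and 4339 in WT and 3650.2, 3641 and 3468 in LenR. The LenR sums lay below all WT sums, with means of 4051 ± 249 and 3586 ± 103 FPKM (SD, n = 3 each). GAPDH made up most of that gap. Without it the means were 2276 ± 64.4 and 2198 ± 42.7 FPKM, and the groups overlapped.

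No pentose phosphate enzyme passed the test, and their levels in the groups lay close together. PGD, the second NADPH-producing dehydrogenase, measured 112.0, 113.0 and 119.6 FPKM in WT and 110.3, 114.2 and 111.2 FPKM in LenR. TKT, the transketolase that links the pathway back to glycolysis, measured 137.9, 134.2 and 163.1 FPKM in WT and 152.8, 164.6 and 137.2 FPKM in LenR. Both overlapped, with log2 fold changes of -0.04 and 0.06.

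TALDO1, the transaldolase of the non-oxidative branch, was the one pentose phosphate gene without overlap, at 168.3, 175.4 and 175.1 FPKM in WT and 159.7, 156.3 and 161.8 FPKM in LenR (log2 fold change -0.12, limma adjusted p = 0.312). The lactonase PGLS (10.6 ± 1.55 and 10.7 ± 0.941 FPKM), the isomerase RPIA (17.7 ± 1.30 and 18.5 ± 1.55 FPKM) and the epimerase RPE (11.96 ± 1.09 and 11.5 ± 0.837 FPKM) overlapped. RPE shares 837 bases of exon with KANSL1L on the other strand and is near-identical to RPEL1, so its value is uncertain. The 95% intervals of the 6 log2 fold changes spanned -0.28 to 0.31. The sum was 473 ± 20.9 FPKM in WT and 463 ± 11.6 FPKM in LenR.

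In the TCA cycle, CS, the citrate synthase that opens it, measured 122.2, 118.6 and 126.3 FPKM in WT and 112.0, 125.8 and 118.4 FPKM in LenR. The groups overlapped (log2 fold change -0.04). IDH2, the mitochondrial NADP-dependent isocitrate dehydrogenase and the most abundant gene of this set, was at 268.5, 268.9 and 313.7 FPKM in WT and 293.5, 312.1 and 256.3 FPKM in LenR. IDH1, its cytosolic counterpart, was at 35.5, 35.1 and 32.3 FPKM in WT and 32.6, 33.2 and 36.8 FPKM in LenR. The library order was opposite in this pair: WT replicate 3 was the highest WT library for IDH2 and the lowest for IDH1, and LenR replicate 3 was the lowest LenR library for IDH2 and the highest for IDH1.

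The NAD-dependent isocitrate dehydrogenase is built from the catalytic subunit IDH3A and the subunits IDH3B and IDH3G. IDH3B is given by library because it was the one TCA gene whose groups did not overlap, chosen after its values were seen: 70.1, 68.8 and 69.1 FPKM in WT and 61.1, 59.8 and 60.8 FPKM in LenR. The gap exceeded the spread within either group (69.3 ± 0.708 and 60.6 ± 0.680 FPKM; SD, n = 3 each), with a log2 fold change of -0.19 and a limma adjusted p of 0.0796. IDH3A was at 42.5 ± 2.21 and 37.2 ± 2.68 FPKM (log2 fold change -0.19, limma adjusted p = 0.153) and overlapped, and IDH3G, at 41.04 ± 2.75 and 41.3 ± 3.43 FPKM, showed a log2 fold change of 0.01. Exons annotated on the other strand overlap IDH3A by up to 2608 bases (ACSBG1) and IDH3G by up to 278 bases (SSR4), so without a known strand setting these values are uncertain. With the term for the libraries that stood apart, limma adjusted p was 0.0142 for IDH3B, 0.0489 for IDH3A and 0.0382 for DLD. These then were the only TCA genes called, in a fit that called 28.1% of all genes.

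The 2-oxoglutarate dehydrogenase complex consists of OGDH, DLST and DLD, the last shared with pyruvate dehydrogenase. OGDH measured 49.2, 49.9 and 62.1 FPKM in WT and 52.5, 59.8 and 48.4 FPKM in LenR, and the libraries that stood apart were the highest of each group. DLST (20.5 ± 1.20 and 18.6 ± 0.898 FPKM) and DLD (42.4 ± 3.78 and 36.5 ± 3.87 FPKM) overlapped, with log2 fold changes of -0.13 and -0.21. Succinyl-CoA synthetase has a common subunit, SUCLG1 (60.0 ± 2.13 and 53.2 ± 5.94 FPKM), and the alternative partners SUCLG2 (27.4 ± 0.654 and 28.4 ± 1.89 FPKM) and SUCLA2 (10.8 ± 0.477 and 10.5 ± 1.12 FPKM). All 3 overlapped between groups.

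FH, the fumarase, was at 153.1, 149.8 and 134.9 FPKM in WT and 137.5, 132.3 and 153.0 FPKM in LenR. MDH2, the mitochondrial malate dehydrogenase, was at 86.5, 83.9 and 96.8 FPKM in WT and 90.2, 90.5 and 84.5 FPKM in LenR, and its cytosolic counterpart MDH1 at 123.9 ± 6.84 and 124.0 ± 12.3 FPKM. These groups overlapped, with log2 fold changes of -0.05 for FH and -0.01 for MDH2. Over the 15 genes the 95% intervals spanned -0.44 to 0.27. The summed FPKM was 1160, 1149.9 and 1191 in WT and 1124, 1143 and 1134 in LenR. The means of the sums were 1167 ± 21.4 and 1133 ± 9.05 FPKM (SD, n = 3 each). The LenR sums were lower without overlap, but those of WT replicate 2 and LenR replicate 2 lay close together. FPKM over all genes totalled 389540.9 and 368425.8 in these libraries. The sums were not scaled to such totals, so a lower TCA level in LenR cannot be read from them.

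Ratios of sister enzymes within a library compare them without regard to overall scaling. Of 9 pairs, 5 did not overlap between groups, where 34.5% of single genes tested did not. The share for ratios of other gene pairs was not computed. Each of the 5 pairs holds a gene that did not overlap on its own (SLC2A3, HK2, ALDOC, ENO1 or PFKFB3). The ratios are therefore not separate evidence from the values of those genes. SLC2A3 over SLC2A1 went from 0.350, 0.386 and 0.316 in WT to 0.184, 0.172 and 0.247 in LenR, a log2 difference of -0.81. HK2 over HK1 went from 1.93, 1.90 and 2.01 to 2.51, 2.14 and 2.59, a difference of 0.31. ALDOC over ALDOA was 0.0598, 0.0627 and 0.0599 in WT and 0.0817, 0.0817 and 0.0868 in LenR, a difference of 0.46. ENO2 stood higher against ENO1 in every LenR library (log2 difference 0.26), and PFKFB4 stood lower against PFKFB3 (-0.50). For each of these 5 pairs the exact two-sided permutation p was 0.1, the smallest that 3 against 3 libraries allow, and the Benjamini-Hochberg value over 9 pairs was 0.18. PFKM over PFKL (exact permutation p = 0.5), SUCLG2 over SUCLA2 (0.2), IDH2 over IDH1 (1.0) and MDH2 over MDH1 (1.0) overlapped.

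**Figure D3:**
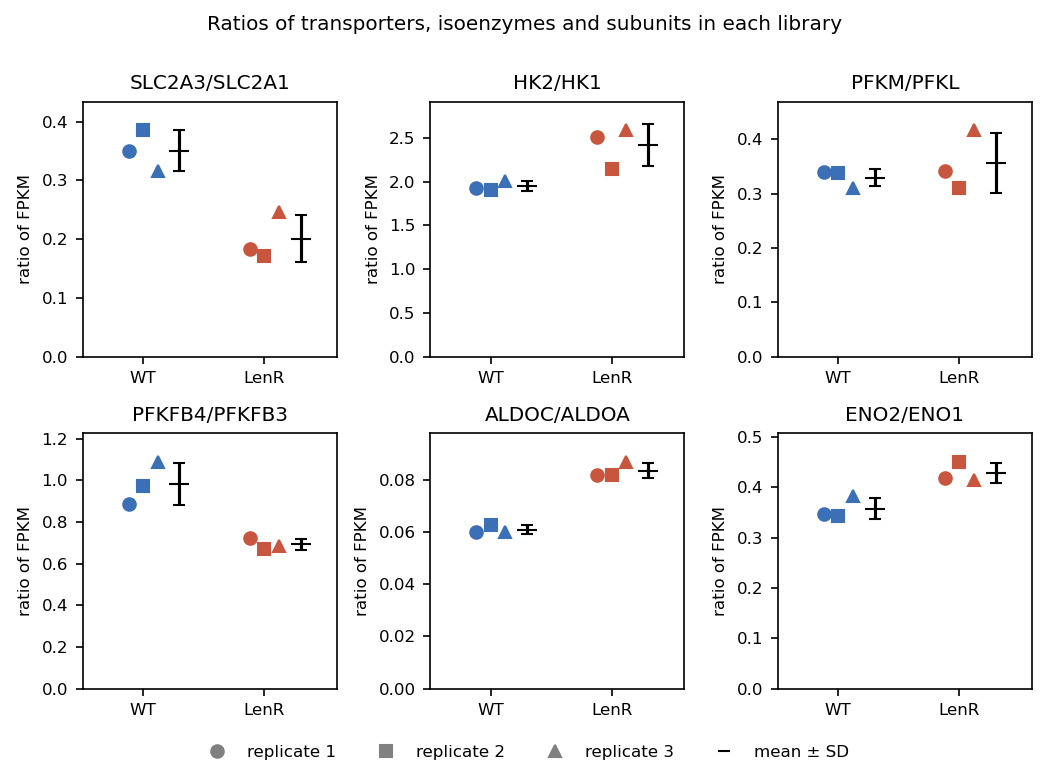
Ratio of FPKM values (y axis, from 0) of 6 pairs of glycolytic genes in each WT and LenR library; marker shapes give the replicate and the black bars the mean ± SD of 3 libraries. PFKM/PFKL overlaps between groups, and the other 5 ratios do not.

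The spread within groups had a pattern of its own across the 39 genes. In 32 of them (82.1%) WT replicate 3 and LenR replicate 2 were displaced the same way from the other libraries of their group, as were 76.3% of all genes tested. In 18 genes both libraries lay above, among them OGDH, TKT and GPI, and the median GC content of their transcripts was 56.7%. In 14 genes both lay below, among them DLD, FH and PGK1, with a median of 46.3%. Across the 39 genes, which are not independent replicates, transcript GC content correlated with the displacement at r = 0.791 for WT replicate 3 and r = 0.684 for LenR replicate 2. The displacement of WT replicate 3 was 0.07 for HK2, 0.05 for PFKM, 0.01 for PFKFB3 and -0.02 for SLC2A3 on the log2 scale, and 0.15 for ALDOC and 0.25 for GAPDH. That of LenR replicate 2 was -0.01 for HK2, -0.11 for PFKM, 0.16 for PFKFB3, -0.09 for SLC2A3, 0.01 for ALDOC and 0.09 for GAPDH. With a term for these libraries 11 of the 39 genes were called, 4 higher and 7 lower, against 28.1% of all genes in that fit. After removal of the GC trend 10 were called, 4 higher and 6 lower, against 23% of the genes with a GC value. Both sets held the 5 genes named above. The part of GC content in any single difference was not tested.

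**Figure D4:**
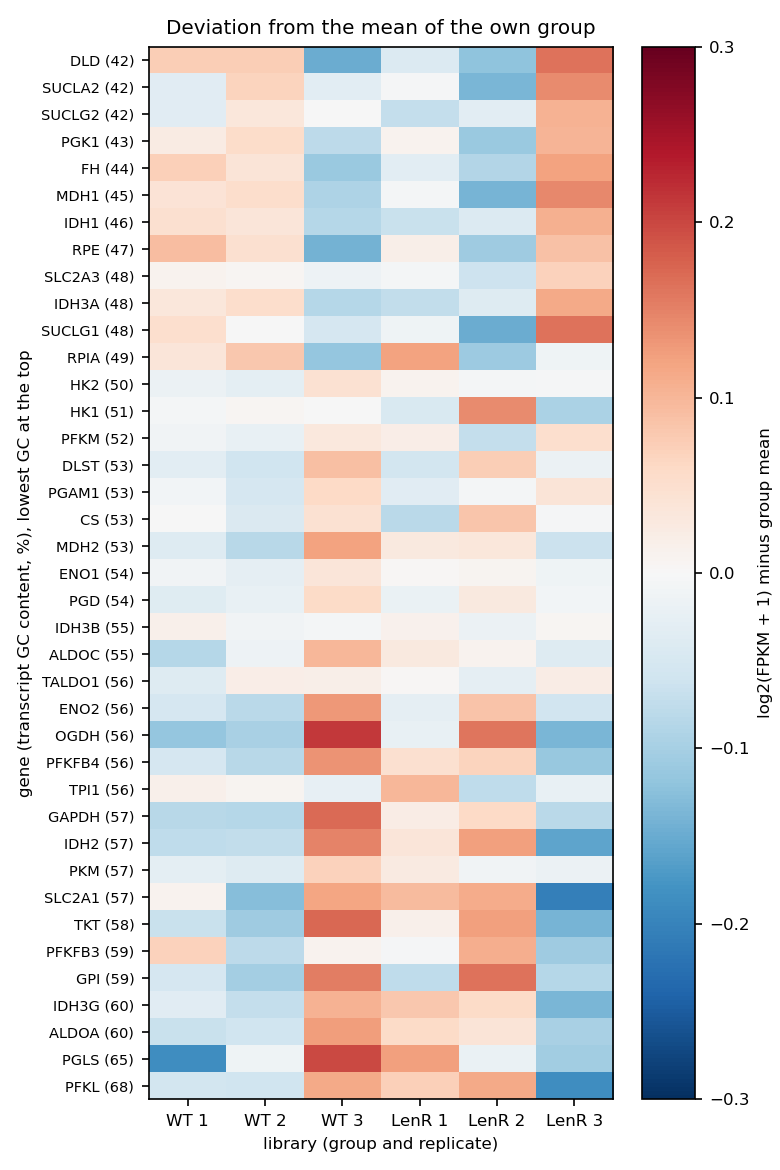
Deviation of log2(FPKM + 1) from the mean of its own group (colour) for the 39 genes, sorted by transcript GC content (y axis, percent in brackets), in the 6 libraries (x axis). WT replicate 3 and LenR replicate 2 are mostly below their group mean in the genes of low GC content and above it in those of high GC content, and LenR replicate 3 is mostly the reverse.

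The regions around the called genes had medians near 0. Among tested genes within 5 Mb, the median log2 fold change was 0.03 around SLC2A3 (68 genes), 0.01 around HK2 (52), -0.04 around PFKM (71), -0.05 around PFKFB3 (16) and 0.07 around ALDOC (65). Beside the overlaps given above, exons on the other strand overlap SLC2A1 (128 bases at most), ALDOA (402), GAPDH (230) and ENO1 (126). They also overlap PGLS (261), SUCLA2 (299), MDH1 (191), IDH1 (94), DLD (70), HK1 (49), CS (28), TPI1 (14) and HK2 (7). Exons on the same strand overlap GPI (349), ALDOA (304), PFKFB4 (289), SLC2A1 (112), CS (108) and PGK1 (97). The reads of all these genes could be mixed with those of the overlapping genes.

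Further genes of the same pathways were read from lists of glycolytic, pentose phosphate and TCA-linked enzymes. Of 16 other glycolytic and glucose-handling genes tested, 3 rose and 0 fell (18.8% called, near the 15.1% of all genes). MINPP1, a phosphatase that also acts on 2,3-bisphosphoglycerate, went from 15.2 ± 0.490 to 21.1 ± 1.17 FPKM (log2 fold change 0.44, limma adjusted p = 0.00347). PGAM5, a mitochondrial protein phosphatase of the phosphoglycerate mutase family, went from 24.0 ± 2.24 to 32.6 ± 2.30 FPKM (0.43, limma adjusted p = 0.0141). All 20 genes tested within 5 Mb of PGAM5 were above 0, with a median of 0.31. GPD1L, a relative of glycerol 3-phosphate dehydrogenase, went from 5.71 ± 0.405 to 7.42 ± 0.275 FPKM (0.33, limma adjusted p = 0.0166).

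Of 7 other pentose phosphate genes tested, 1 rose and 0 fell (14.3% called, near the 15.1% of all genes). It was IDNK, the gluconokinase, at 2.69 ± 0.329 and 3.67 ± 0.302 FPKM (log2 fold change 0.34, limma adjusted p = 0.0381). Of 21 TCA-linked genes, 2 rose and 0 fell (9.52% called, below the 15.1% of all genes). PCK2, the mitochondrial enzyme that turns oxaloacetate into phosphoenolpyruvate, went from 5.73 ± 0.338 to 8.99 ± 0.794 FPKM (0.57, limma adjusted p = 0.00258). ME1, the cytosolic malic enzyme that yields NADPH, went from 16.6 ± 1.01 to 20.3 ± 0.969 FPKM (0.28, limma adjusted p = 0.0370). MINPP1 and PCK2 were called in all 18 alternative settings. Leaving out WT replicate 1 gave limma adjusted p of 0.0699 for PGAM5, 0.0638 for GPD1L, 0.144 for IDNK and 0.0673 for ME1. PGAM5 also missed the threshold without WT replicate 2 (0.0679) or LenR replicate 1 (0.056). IDNK missed it without WT replicate 3 (0.0842), LenR replicate 1 (0.140) or LenR replicate 3 (0.084), and ME1 with each of the 6 libraries left out in turn (0.0578 to 0.135). With WT replicates 1 and 2 averaged the adjusted p was 0.0677 for PGAM5, 0.0581 for IDNK and 0.0921 for ME1. Without both libraries that stood apart it was 0.0517 for GPD1L, 0.0569 for IDNK and 0.0698 for ME1, and IDNK gave 0.0621 with voom.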

How the data were processed

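RNA-seq of 6 MM.1S samples, 3 WT and 3 LenR, was deposited by the authors as 1 table of FPKM values for 12760 genes. The submitters' processing notes list edgeR 3.40.2, featureCounts 2.0.3, HISAT2 2.2.1, FastQC 0.11.9 and the build hg38, with no role for any. For annotation, strand setting and gene filter, details were not given in the sources used here. Since a gene's deposited FPKM values came as whole multiples of one step, reads could be recovered: all 12760 genes were whole within 0.01 read (119 needed a common multiplier). The totals were 14500140 to 17387914 reads, with a median of 511 per gene and library.

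log2(FPKM + 1) was tested with limma 3.58.1 in R 4.3.3 (empirical Bayes with a trend, two-sided, Benjamini-Hochberg over the 11276 genes averaging 1 FPKM or more); fold changes on this scale understate those of low genes. The fit was tested on simulated data with independent libraries. These lacked the displacement shared by WT replicate 3 and LenR replicate 2, so the run says nothing on it. Ratios within pairs were compared by exact permutation. Positions, transcript GC content and exon overlap came from GENCODE 29 on GRCh38, promoters from RefSeq. The 18 alternative settings covered the pseudocount, filter, scaling, trend, voom on recovered reads, each library left out, averaged WT replicates 1 and 2, the replicate block, the libraries that stood apart and GC content. They are treated in the closing section.

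The members and lists were chosen with earlier results of these data known. By rule, all members are accounted for, and those past the threshold and 20 listed genes are given by library. Genes of the other lists are named where they passed the threshold; others were named after their values were seen. The replicate numbers did not pair the samples.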

Additional observations from a re-analysis of the deposited data

How the results depend on the processing

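Over all genes, 1707 were called, 907 with the replicate block, 1075 with a mean of at least 5 FPKM, 1052 with WT replicates 1 and 2 averaged, 3163 with a term for the libraries that stood apart, and 1006 to 1562 with 1 library left out. The 4 members called higher became 0 with the replicate block and with the averaged replicates, and 0 to 4 with 1 library left out. The 1 called lower became 0 with a mean of at least 5 FPKM, where SLC2A3 was not tested, 3 without the trend and with both libraries that stood apart left out, 2 with voom, 7 with the term and 6 with the GC trend removed. The 5 glycolytic calls became 1 with the replicate block and with averaged replicates, 8 with the term or GC removal, and 1 to 5 with 1 library left out. The 0 TCA calls became 3 with the term and 2 with GC removal. The TCA median of -0.04 ranged from -0.0744 to -0.0314 with 1 library left out. The pentose phosphate median of -0.01 became -0.0484 with GC removal, 0.0175 with both libraries that stood apart left out and 0.0028 and 0.0174 without LenR replicates 2 and 3, so its sign was not settled. The glycolysis median of -0.03 became 0.0096 with a mean of at least 5 FPKM and 0.0040 without LenR replicate 3, and the log2 difference of HK2 over HK1 became 0.42 with both libraries left out. The cause of these shifts was not tested.

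Of the 26 genes recomputed in each setting, 4 changed sign, none of them called. IDH1 (-0.01) was 0.0152 with averaged replicates, 0.0036 with GC removal and -0.0588 to 0.0270 with 1 library left out. IDH2 (0.02) was -0.0197, -0.0173 and -0.0445 to 0.097 in the same settings. With both libraries left out OGDH was 0.0242 and MDH2 0.0355, and with 1 left out they ranged from -0.0824 to 0.1043 and from -0.0496 to 0.0524.

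Correlations of same-numbered WT and LenR libraries were 0.024, -0.557 and -0.683, so the numbers were not used as pairs. With the replicate block adjusted p was 0.0145 for SLC2A3, 0.174 for HK2, 0.171 for PFKM, 0.0993 for PFKFB3 and 0.101 for ALDOC, and among the other pathway genes 0.0806 for PGAM5, 0.10 for GPD1L, 0.134 for IDNK and 0.192 for ME1. The fewest reads of a member in a library were 156, and the widest TCA interval reached 0.27 to each side.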

Other observations

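Among glucose-handling genes too low for the test (mean under 1 FPKM), 3 were named after their values were seen. Their p-values carry that choice. In a fit without the filter, 2084 of 12760 genes were called. The other listed genes under 1 FPKM were not called in it. Their limma adjusted p was 0.397 for PFKFB1, 0.654 for FBP1, 0.273 for RBKS and 0.655 for PGM2L1. SLC2A10, which encodes the transporter GLUT10, measured 0.162, 0.128 and 0.259 FPKM in WT and 0.989, 1.148 and 1.03 FPKM in LenR, with 9 to 77 reads per library. The LenR libraries were all above the WT libraries, and their mean was 5.77 times the WT mean. The log2 fold change of FPKM + 1, a scale that understates changes of low genes, was 0.80. It came from the fit without the filter (limma adjusted p = 0.000221). GPD2, the mitochondrial glycerol 3-phosphate dehydrogenase of the glycerophosphate shuttle, measured 1.46, 1.14 and 0.967 FPKM in WT and 0.346, 0.349 and 0.335 FPKM in LenR, with 31 to 158 reads per library. GPD2 fell to 0.289 of its WT mean, or by 0.70 on the log2(FPKM + 1) scale (limma adjusted p = 0.00119). TKTL1, a transketolase-like gene, measured 0.806, 0.707 and 0.968 FPKM in WT and 0.308, 0.261 and 0.316 FPKM in LenR, with 12 to 41 reads per library. TKTL1 fell to 0.357 of its WT mean, or by 0.49 on the log2(FPKM + 1) scale (limma adjusted p = 0.00178). With so few reads, each value carries a large counting error.

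Of the 10 plasma cell markers measured, 5 rose in LenR and 0 fell, where 8.57% of all genes tested were called higher and 6.57% lower: SDC1, the syndecan of the plasma cell surface, from 255.1 ± 14.4 to 349.7 ± 42.8 FPKM (limma adjusted p = 0.0302), CD38 from 24.3 ± 0.672 to 37.3 ± 0.829 FPKM (0.000585), and the regulators XBP1, PRDM1 and IRF4 (0.0203, 0.0155 and 0.0217). Whether they moved together with the glycolytic genes was not tested.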
